A study of Rattus norvegicus with 36 samples.

Results

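Atf3, Jun, Smad1, Klf6, Crem and Stat3 encode transcription factors that sensory neurons are known to use after their axons are injured. They were followed in rat dorsal root ganglia, where the cell bodies of these neurons lie, after ligation of the L5 spinal nerve, which is used to model neuropathic pain. The members were all probe sets on 3 Affymetrix RG_U34 chip types (A, B and C) whose annotation names only one of these genes, which gave 19 of 26202 probe sets and 6 of 10969 genes. Jun had 4 probe sets, Stat3 6, Crem 4, Smad1 3, and Atf3 and Klf6 had 1 each. After a filter on low signals 13 of the 19 were tested, beside 15721 of all probe sets, and each of the 6 genes kept at least 1.

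Total RNA came from 6 pools of ganglia. The L5 pools, at 28 and at 50 days, held ganglia of the ligated nerve. The L4 pools held the neighbouring ganglia of operated rats, whose own nerve was not ligated, and each sham pool mixed L4 with L5 ganglia of sham-operated rats. Any difference between normal L4 and L5 ganglia is therefore part of every comparison between conditions. Where the labels state how many animals went into a pool, it is 30 rats, and they do not state strain, sex or age. Every pool was hybridised to 2 arrays per chip type, 36 arrays in all. On chip B the title and the description of 1 sham array name different days, and it was placed by its title.

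After an axon is cut, kinase signals carried back from the injury and cytokines released around it switch on a set of transcription factors in the cell body. Atf3 is absent or low in intact sensory neurons and is widely used as a marker of axotomised ones. Jun is the main partner in the AP-1 dimer and is activated by the JNK kinases. Smad1 carries signals of bone morphogenetic proteins, and Stat3 those of cytokine receptors that contain gp130. Crem answers cyclic AMP, and one of its products, ICER, is a repressor made from an internal promoter. Klf6 is a zinc finger factor of the Krüppel-like family that promotes axon growth.

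Only Atf3 passed the test, and it was higher in L5 than in sham and than in L4 at both days. The Jun, Smad1 and Crem probe sets that were tested stood higher in L5 than in sham at 28 days, with no overlap between arrays. At 50 days the arrays of the brightest Jun probe set and of Smad1 overlapped those of sham. For Klf6 and the brightest Stat3 probe set the L5 signals lay near or slightly below those of sham at both days. In bulk tissue, fewer cells of a type and less RNA per cell cannot be told apart.

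Atf3 was read by 1 probe set, M63282_at on chip A. In sham its signals on the 2 arrays were 146.5 and 161.3 at 28 days and 113.7 and 93.1 at 50 days. In L4 they were 189.5 and 251.6 at 28 days and 138.7 and 142.6 at 50 days. In L5 they were 530.6 and 432 at 28 days and 258.3 and 373.7 at 50 days. At each day both L5 arrays lay above both L4 arrays, and both L4 arrays above both sham arrays.

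Differences are given on the scale log2(signal + pseudocount), which understates the change of dim probe sets, and come from a limma fit over the 6 pools with condition and day as terms. The 2 days stand as the 2 pools of a condition, and 2 residual degrees of freedom remain. The spread in this fit is how far the differences between conditions vary between the days. Limma moves the spread of each probe set toward that of other probe sets of like signal. The p-values thus do not measure the spread of a probe set's own pools alone. They were adjusted by Benjamini-Hochberg over all 15721 probe sets. Atf3 was higher in L5 than in sham by 1.52 ± 0.21 (SE, 2 pools per condition), 2.87-fold, with an adjusted p of 0.015 by limma. It was higher in L5 than in L4 by 1.08 ± 0.21, 2.12-fold, with an adjusted p of 0.037 by limma. L4 stood above sham by 0.44 ± 0.21, 1.36-fold, which had an unadjusted p of 0.056 and an adjusted p of 1 by limma.

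The L5 call for Atf3 against sham was lost without the sham pool of 28 days, where the difference was 1.49. A fit that leaves out 1 pool holds a single pool of 1 condition. Calls gained, kept or lost there carry no spread between the pools of that condition. The call against L4 was lost with the L4 pool of 28 days left out (1.1). It was also lost with no filter on low signals (adjusted p = 0.066), with quantile normalization (adjusted p = 0.06) and with no intensity trend (adjusted p = 0.14). From the first arrays of the pools alone the adjusted p was 0.17 and from the second alone 0.16. The call against sham was lost in the last 3 of these fits too. When arrays were scaled to their hybridisation controls, the median of all probe sets was -0.34 for L5 against sham and -0.49 for L5 against L4, beside 0.04 for each otherwise. On that scale Atf3 was higher in L5 than in sham by 1.08 (adjusted p = 0.012) and than in L4 by 0.55 (adjusted p = 0.16).

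At 28 days the L5 pool stood above sham by 1.56 for Atf3, 2.95-fold, and at 50 days by 1.48, 2.8-fold. Against L4 the differences were 1.09 and 1.08. Atf3 was also lower at 50 than at 28 days in every condition. On the scale with the pseudocount, 28 days exceeded 50 days 1.44-fold in sham, 1.51-fold in L4 and 1.52-fold in L5, and both arrays of 50 days lay below both of 28 days in each. Over the 3 conditions the day difference was -0.57 ± 0.17, which was not called (adjusted p = 0.14). The L5 excess of Atf3 over sham was thus nearly equal at both days, on a level that was lower at 50 days in sham too. With 1 pool per condition at each day there is no test of either day alone.

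**Figure D1:**
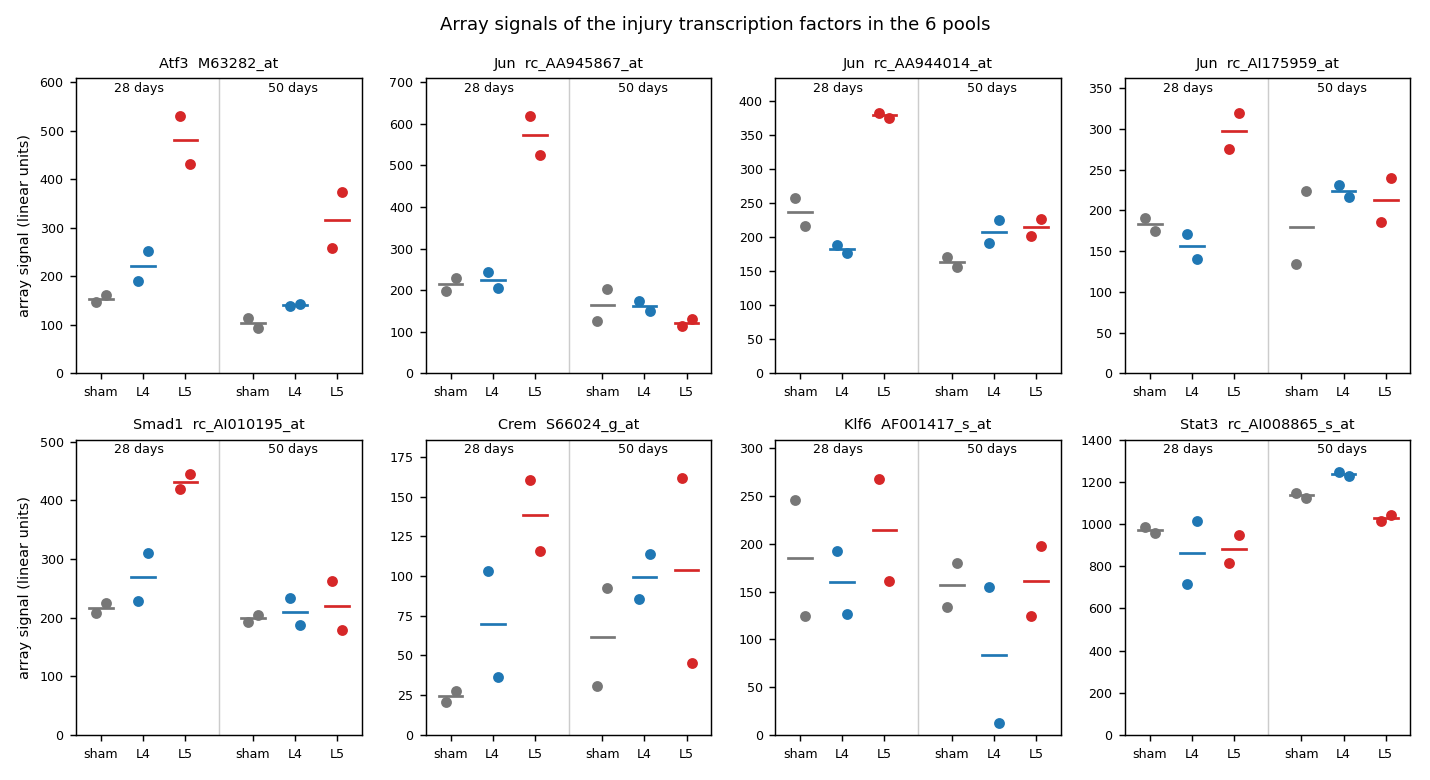
Array signals (linear units) of the 8 probe sets the text describes most closely, in sham, L4 and L5 pools at 28 and 50 days. Each point is 1 array, the short line is the mean of a pool's 2 arrays, and each panel has its own scale from 0. The L5 points of Atf3 lie above the others at both days. Those of Jun and Smad1 do so at 28 days.

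The brightest Jun probe set, rc_AA945867_at, differed most between the days. Its sham signals were 198.9 and 229.1 at 28 days and 127.1 and 202.5 at 50 days. In L4 they were 243.8 and 205.4 at 28 days and 173 and 150.4 at 50 days. In L5 they were 619.4 and 525.4 at 28 days and 113.9 and 130.4 at 50 days. The L5 pool was thus the highest of the 3 at 28 days, and at 50 days both its arrays lay below both L4 arrays.

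For this probe set L5 stood above sham by 1.37 at 28 days, 2.58-fold, and below it by a difference of -0.37 at 50 days, where the arrays overlapped. Within L5, 28 days exceeded 50 days 4.33-fold on that scale. The corresponding ratio was 1.36 in L4 and 1.3 in sham. Fitted over both days the L5 difference from sham was 0.50 ± 0.35 (adjusted p = 0.49). The day difference was -0.98 ± 0.29 (adjusted p = 0.14). Whether the L5 difference itself changed between days has no test, since no residual degrees of freedom remain for it. When the later L5 pool was left out, the L5 difference from sham was 1.35, and when the earlier one was left out it was -0.35. Against L4 the difference was 1.32 with the later L5 pool left out. These fits hold 1 L5 pool each, so they are no test of either day.

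A second Jun probe set, rc_AA944014_at, read 382.8 and 375.6 in L5 at 28 days, against 257.6 and 216.5 in sham and 188.1 and 176.8 in L4. At 50 days it read 202.2 and 227.5 in L5, 171.3 and 156.2 in sham and 191.5 and 224.9 in L4. L5 was again the highest pool at 28 days, and at 50 days it overlapped L4 while staying above sham. Its L5 difference from sham was 0.65 at 28 days and 0.37 at 50 days.

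Another, rc_AI175959_at, read 274.8 and 319.8 in L5 at 28 days, against 191.2 and 175.1 in sham and 171.2 and 140.5 in L4. At 50 days the readings were 186.2 and 240 in L5, 134.3 and 223.9 in sham and 230.8 and 216 in L4. The L5 arrays stood apart at 28 days and overlapped both other pools at 50 days.

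The remaining Jun probe set, X17163cds_s_at, was dim, with a mean signal of 43.1 where the filter of chip A lay at 39.3. Its pool means at 28 and 50 days were 51.7 and 18.8 in sham and 31.6 and 46.2 in L4. Over the sham and L4 arrays alone its mean lies under 39.3, so it passed through its L5 signals. In L5 it read 63.5 and 74.8 at 28 days and 15 and 67.4 at 50 days. The arrays of the later L5 pool differed by 1.53 on the log2 scale, so little can be read from its values at 50 days.

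All 4 Jun probe sets thus had both L5 arrays above both sham arrays and above both L4 arrays at 28 days. For X17163cds_s_at, which passed the filter only through its L5 signals, this is no support. None of the 4 was called for L5 against sham, with fitted differences of 0.46 to 0.51 and adjusted p values of 0.33 to 0.63. The probe sets of 1 gene share its RNA and its pools and are no replicates of each other. Against L4 the fitted differences of Jun ran from 0.37 to 0.53. On the hybridisation-control scale the L5 minus L4 difference of rc_AA945867_at was -0.05 and that of rc_AI175959_at -0.12.

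Smad1 was read well by rc_AI010195_at on chip B. Its signals in L5 were 418.8 and 443.9 at 28 days and 261.6 and 177.9 at 50 days. In sham they were 207.1 and 224.1 at 28 days and 192.2 and 204.8 at 50 days. In L4 they were 228.2 and 310.7 at 28 days and 233.3 and 187 at 50 days. At 28 days the 3 conditions did not overlap, with L5 highest and sham lowest, and at 50 days all 3 overlapped.

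L5 stood above sham by 0.95 for Smad1 at 28 days, 1.93-fold, and by 0.11 at 50 days. The fitted difference was 0.53 ± 0.23, with an unadjusted p of 0.045 and an adjusted p of 0.28 by limma. It was 0.50 with the sham array of unclear day left out. With the L5 pool of 28 days left out it was 0.17, and with that of 50 days left out it was 0.89. L5 exceeded L4 by 0.66 at 28 days and 0.04 at 50 days. The sign of the fitted L5 minus L4 difference, 0.35 ± 0.23, turned to -0.31 on the hybridisation-control scale. The other 2 Smad1 probe sets had mean signals of 22.1 and 9.63 and were not tested.

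Stat3 differed from the others in being bright and nearly level. Its brightest probe set, rc_AI008865_s_at on chip B, read 985.2 and 959.3 in sham at 28 days and 1148 and 1126.3 at 50 days. In L4 it read 714.5 and 1014.7 at 28 days and 1246.2 and 1228.6 at 50 days. In L5 it read 814.5 and 947 at 28 days and 1014 and 1041.1 at 50 days. L5 lay slightly below sham at each day, by a difference of -0.14 both times, and both arrays of 50 days lay above both of 28 days in every condition.

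The fitted L5 difference of this Stat3 probe set was -0.14 ± 0.17 (adjusted p = 0.7), and the day difference was 0.32 ± 0.14 (adjusted p = 0.26). The second brightest, rc_AI236828_s_at on chip C, differed from sham in L5 by -0.30 ± 0.19 (adjusted p = 0.45), with both L5 arrays below both sham arrays at each day. On the hybridisation-control scale this difference was -0.67 and passed the threshold. The _s_at ending marks a probe set that can match more than 1 transcript.

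The remaining tested Stat3 probe sets did not share a pattern. For rc_AI012356_at the L4 pool of 28 days was the highest, at 544.6 and 561.9 against 356.7 and 373.2 in sham and 394.7 and 339.1 in L5. For rc_AI059916_f_at the arrays of L5 overlapped those of sham at both days, and its fitted L5 difference was 0.07 ± 0.23. The dim rc_AI639141_at read 131.9 and 94.5 in L5 at 50 days, against 34.4 and 55.8 in sham and 44.8 and 48.6 in L4. Its L5 difference from sham was 1.13 at 50 days and -0.02 at 28 days, the reverse order of the 3 brighter Jun probe sets and Smad1. Fitted over both days it was 0.56 ± 0.36 (adjusted p = 0.45). X91810_at, with a mean signal of 39, fell just under the filter.

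Crem was read by S66024_g_at on chip A, the member with the largest fitted L5 difference from sham after Atf3. Its signals in sham were 20.9 and 27.9 at 28 days and 30.5 and 92.4 at 50 days. In L4 they were 103.5 and 36.5 at 28 days and 85.8 and 113.7 at 50 days. In L5 they were 160.4 and 116 at 28 days and 161.9 and 45.3 at 50 days. The sham pool of 28 days was the lowest of the 6, L4 and L5 both lay above it, and the arrays of several pools were far apart.

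At 28 days L5 stood above sham by 2.01 for Crem, 4.03-fold, and at 50 days by 0.58 with overlapping arrays. The fitted difference was 1.30 ± 0.37, 2.45-fold, with an unadjusted p of 0.0046 and an adjusted p of 0.12 by limma. L4 exceeded sham by 0.88 ± 0.37, with an unadjusted p of 0.036 and an adjusted p of 1 by limma. L5 and L4 differed by 0.42 ± 0.37 (adjusted p = 0.56), which was -0.06 on the hybridisation-control scale. The L5 difference from sham was 1.94 when the later L5 pool was left out, and 1.3 when either L4 pool was left out. Leaving out the sham pool of 28 days gave 0.86, and leaving out the L5 pool of that day gave 0.65. From the first arrays of the pools alone it was 2.19 and from the second alone 0.4. The other 3 Crem probe sets had mean signals of 32.3, 30 and 7.16 and were not tested.

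Sequences upstream of the RNA were looked up for the members because Crem, Atf3 and the AP-1 factors are known to act on cyclic AMP response elements. A table of RefSeq promoter windows of assembly GRCr8, from 250 bases before to 50 bases after each start, held 4 of the 6 genes, and Atf3 and Jun were not among them. Both strands were searched for the cyclic AMP response element TGACGTCA, found in 1.83% of 33469 windows, the AP-1 site TGACTCA in 4.63%, its variant TGACATCA in 4.34% and the STAT site TTCCNGGAA in 1.27%. None of these motifs overlapped another in the windows below. Crem has 3 windows, and the 2 that hold motifs are shown, 5′ to 3′ on the plus strand, because Crem alone of the 4 genes searched has this element at its starts. Capitals mark the motif matches.
Crem chr17:58985240-58985539: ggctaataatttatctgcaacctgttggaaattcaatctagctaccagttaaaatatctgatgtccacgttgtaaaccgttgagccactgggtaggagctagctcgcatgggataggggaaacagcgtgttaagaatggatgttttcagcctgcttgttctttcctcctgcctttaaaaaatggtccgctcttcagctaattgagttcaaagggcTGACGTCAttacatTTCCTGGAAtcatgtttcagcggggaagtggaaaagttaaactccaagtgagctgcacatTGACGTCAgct
Crem chr17:58984547-58984846: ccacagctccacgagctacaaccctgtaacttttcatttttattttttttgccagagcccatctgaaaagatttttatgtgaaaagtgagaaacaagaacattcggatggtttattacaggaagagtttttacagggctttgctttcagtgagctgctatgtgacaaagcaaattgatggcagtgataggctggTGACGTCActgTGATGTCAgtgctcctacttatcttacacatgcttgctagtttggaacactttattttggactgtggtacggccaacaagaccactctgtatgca
The first window holds the cyclic AMP response element at positions -35 and 40 from its start and the STAT site at -21. The second holds the element at -56 and TGACATCA, on the reverse strand, at -45. The Klf6 window (chr17:69458429-69458728, minus strand) holds TGACATCA at -132, and those of Smad1 and Stat3 hold none of the 4. A match of letters is a description, and the sources used here do not say which Crem start the probe set reads.

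Klf6, read by AF001417_s_at on chip A, stood near the sham level in L5. Its signals were 246.3 and 124.2 in sham at 28 days, 134.1 and 180.2 in sham at 50 days, 192.6 and 126.7 in L4 at 28 days, and 154.4 and 12.7 in L4 at 50 days. In L5 they were 268 and 160.9 at 28 days and 124.3 and 197.4 at 50 days. Arrays of all conditions overlapped at both days, and a single array, the second of L4 at 50 days, stood far below the rest.

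The L5 difference of Klf6 from sham was 0.12 ± 0.30 (adjusted p = 0.86). L4 differed from sham by -0.76 ± 0.30 and L5 from L4 by 0.88 ± 0.30 (adjusted p = 1 and 0.15). Both values rested on the single L4 array: with it left out, a choice made after its value was seen, they were -0.08 and 0.20. The day difference of -0.64 ± 0.24 became -0.19. With the L4 pool of 28 days left out, so that this array weighs more, L5 against L4 was 1.43. With the L5 pool of 28 days left out it was 1.08.

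**Figure D2:**
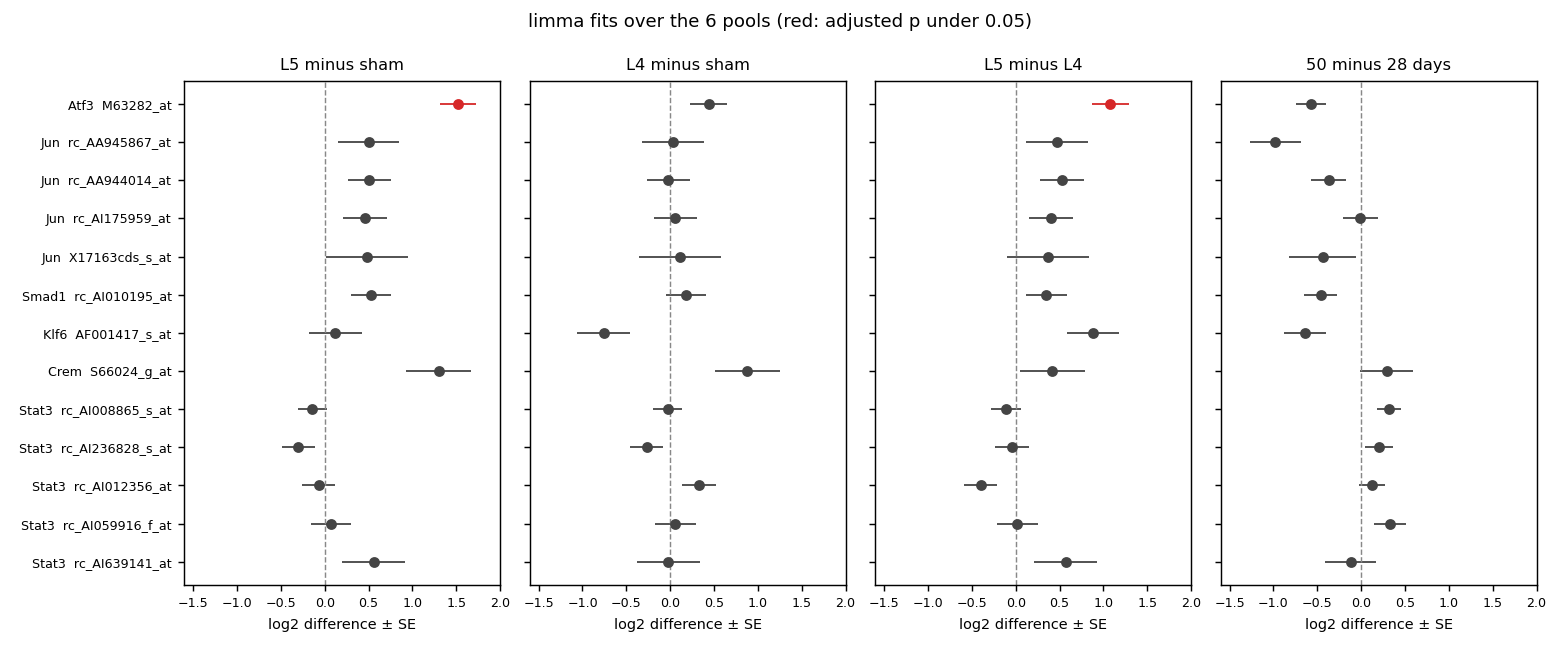
Log2 differences from the limma fit over 6 pools for the 13 tested probe sets, with standard errors as bars, for L5 minus sham, L4 minus sham, L5 minus L4 and 50 minus 28 days. Red points passed an adjusted p of 0.05, which Atf3 alone did, at 1.52 and 1.08.

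Of the 13 tested probe sets, 1 was called for L5 against sham, where 0.763% of all 15721 were, and its difference was above 0. The median difference of the 13 was 0.48 beside 0.04 over all probe sets, and 10 lay above 0. That median is the value of Jun X17163cds_s_at, which passed the filter only through its L5 signals and is among the 10. For L5 against L4, 1 was called beside 1.27% of all, with a median of 0.40 against 0.04, and X17163cds_s_at enters there too. Jun has 4 and Stat3 5 of the 13 probe sets, and those of 1 gene are no replicates. The 2 medians and the 10 are therefore descriptions and no support. For L4 against sham limma called 0 of the 13 and 0% of all, while 2 of the 13 and 427 of all had an unadjusted p under 0.05. The 2 were Crem and Klf6, on opposite sides of 0. For the day limma called 0 of the 13 beside 0.286% of all, and 5 of the 13 had an unadjusted p under 0.05, as did 18.7% of all. The median of the 13 was -0.12 beside 0.04 over all probe sets.

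The count of members that stood apart in L5 differed between the days. At 28 days both L5 arrays lay above both sham arrays in 7 of the 13 probe sets, where 25.7% of all probe sets did. At 50 days this held for 3, where 28.9% of all did, namely Atf3, Jun rc_AA944014_at and Stat3 rc_AI639141_at. Against L4, L5 stood above in 7 at 28 days (29.2% of all) and in 2 at 50 days (28.3% of all), Atf3 and Stat3 rc_AI639141_at. The 7 of 28 days were Atf3, the 4 of Jun, Smad1 and Crem in both comparisons, which share the L5 arrays. Among the 4 of Jun, X17163cds_s_at passed the filter only through its L5 signals. The count of 50 days lies close to the share over all probe sets. Within L5, 5 members had both arrays of 28 days above both of 50 days (26.4% of all): Atf3, Jun with 3 probe sets, and Smad1. The count was also 5 within sham (23.1% of all) and was 4 within L4 (20.9% of all), so it is not particular to L5.

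**Figure D3:**
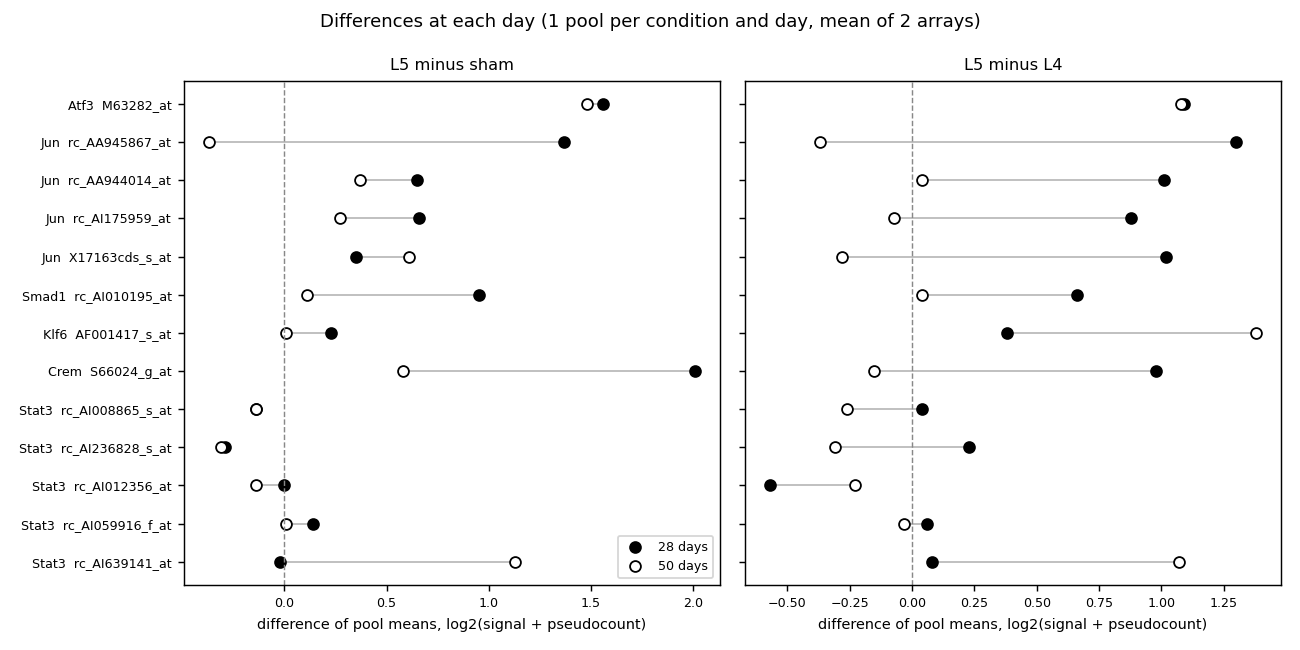
Differences of pool means on the scale log2(signal + pseudocount) at 28 days (filled) and 50 days (open), for L5 minus sham on the left and L5 minus L4 on the right. Each point compares 1 pool with 1 pool and has no error bar. Atf3 has its points almost together, at 1.56 and 1.48 against sham, while those of Jun rc_AA945867_at lie at 1.37 and -0.37.

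The day pattern of Jun and Smad1 had company among the markers of other cells. The 8 tested macrophage markers summed to a signal of 5190 in L5 at 28 days, where the other 5 pools lay between 1450 and 1840, L5 at 50 days among them at 1730. All 8 stood above sham in L5 at 28 days, with a median of 1.15, and the median at 50 days was 0.12. Itgam and Cd163, also on the macrophage list, fell under the filter, and Msr1 and Adgre1 had no probe set of their own. Of 13 tested skeletal muscle markers, such as Acta1 and Ckm, the summed signal was 4380 in L5 at 28 days and 1150 to 2620 in the other pools, lowest in sham at 28 days. Their median difference from sham at 28 days was 1.96 in L5 and 0.96 in L4. At 50 days Cd4, listed here with the macrophages, stood above sham in L5 by 1.25 and Fcer1g by 0.82. The muscle marker Tpm2 did so by 0.87, while the muscle median was 0.1. The 3 tested T cell markers had a median difference from sham in L5 of -0.13 at 28 days and 0.79 at 50 days. The part of these cells in the values of Atf3, Jun, Smad1 and Crem was not tested. The 11 neuronal markers summed to 40000 in L5 at 28 days and 46700 in L5 at 50 days. The sums were 43300 and 48800 in L4 and 47400 and 52700 in sham, so L4 lay below sham too. Their median L5 difference from sham was -0.44 at 28 days, -0.21 at 50 days and -0.27 fitted over both.

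**Figure D4:**
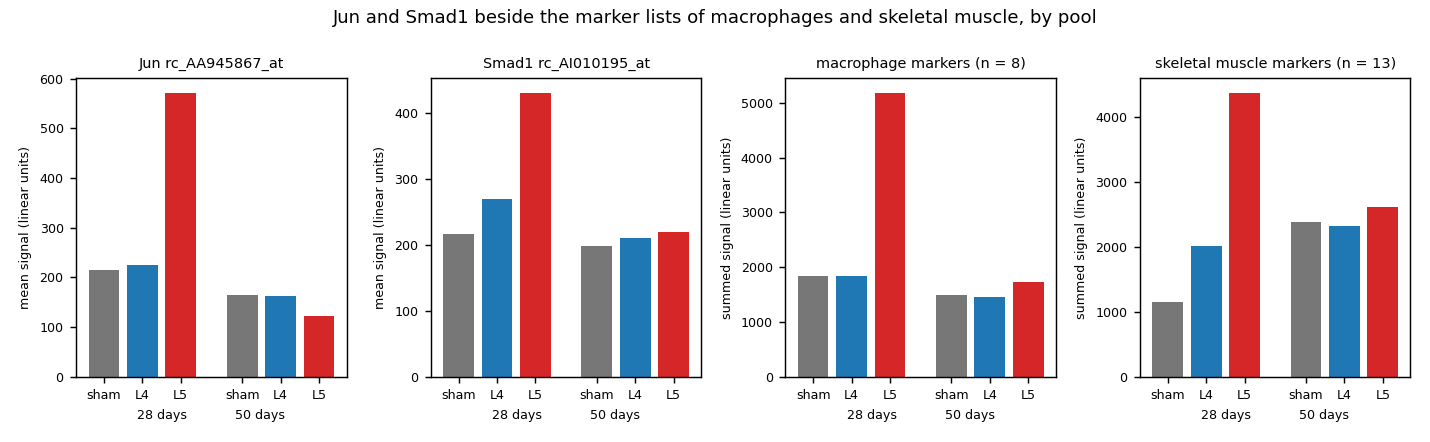
Mean signals of Jun rc_AA945867_at and Smad1 rc_AI010195_at beside the summed signals of 8 macrophage and 13 skeletal muscle markers, for each of the 6 pools (linear units, bars from 0, no error bars since each is 1 pool). In all 4 panels the L5 pool of 28 days is the highest.

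Other probe sets whose levels over the 6 pools ran most nearly in parallel with each member were taken from those with a range of at least 1 on the log2 scale, 3404 probe sets of named genes for Atf3. These likenesses rest on 6 pools that share their arrays and are descriptions. For Atf3 the nearest was Vip, a neuropeptide induced in axotomised sensory neurons (Pearson r = 0.988), then Rnd3 (0.984), Nckap1l, a blood cell actin regulator (0.979), a second Vip probe set (0.976) and Sprr1a, a gene known from regenerating axons (0.975). The Sprr1a probe set was rc_AA891911_at, with a mean signal of 88.4. The brightest of that gene, L46593cds_at at 475, stood above sham in L5 by only 0.01 at 28 days and by 0.66 at 50 days. For Jun the nearest were Lyz2, the lysozyme of macrophages (0.991), Kmt2e (0.99) and Ythdf2 (0.985). For Smad1 they were Reg3b, a secreted protein of injured neurons (0.986), RT1-Da, a class II antigen-presenting chain (0.986), and Sp110 (0.984). Reg3b and the second Vip probe set were dim, with mean signals of 42.2 and 45.8 where the filter of chip A lay at 39.3. Reg3b stood above sham in L5 by 1.5 at 28 days, with a difference of 0 at 50 days. Both may have passed the filter through their L5 signals, so their likeness is no support.

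The genes nearest to Crem were Trim54, a muscle ring finger protein (r = 0.977), Myl11, a myosin light chain of fast muscle (0.97), and Mgat3 (0.96). Trim54 and Mgat3 were dim, with mean signals of 46.3 and 44.9. For Klf6 the nearest were Zeb1 (0.988), Cdk17 (0.986) and Klf10 (0.983), all of them read on chip A. The Klf6 level of the L4 pool of 50 days rests on the single low array described above. Klf10 differed from sham in L4 by -0.75, where Klf6 differed by -0.76, and the part of that array in these likenesses was not tested. For Stat3 the nearest were Mypop (0.965), Slc25a1 (0.948) and Cyp2d4 (0.947). Between the members' own brightest probe sets r was 0.94 for Jun and Smad1, 0.82 for Atf3 and Smad1, and 0.61 for Atf3 and Jun. Stat3 ran opposite to Klf6 (-0.75), Smad1 (-0.69), Atf3 (-0.65) and Jun (-0.63), and its r with Crem was 0.01. The range of this Stat3 probe set over the pools was only 0.53 on the log2 scale.

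The upstream and downstream genes of these factors were described by the brightest tested probe set of each gene, beside a median of 0 over the brightest probe sets of all 8269 genes tested. Of those 8269, 17% had an unadjusted p under 0.05 for L5 against sham, a share against which the counts of such genes in each list below are to be read. Of 25 related transcription factors, 0 passed the limma test for L5 against sham in either direction, 3 had an unadjusted p under 0.05, and their median was 0.06. The lowest p-values belonged to Egr1, an immediate early factor, at 0.69 ± 0.23 (adjusted p = 0.17), and Junb, an AP-1 partner, at 0.98 ± 0.38 (adjusted p = 0.22). Junb stood above sham by 1.07 at 28 days and 0.89 at 50 days. Smad2, a mediator of TGF-beta signals, differed by -0.50 ± 0.22 and Smad4, the common partner of the SMAD factors, by 0.39 ± 0.19.

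Of 10 genes of the JNK pathway, which activates Jun, 0 passed, 2 had an unadjusted p under 0.05, and the median was -0.15. Mapk8ip1, a scaffold of that pathway, differed by -0.99 ± 0.36 (adjusted p = 0.2) and Mapk8ip2, a related scaffold, by -0.80 ± 0.33. In L4, Mapk8ip1 differed from sham by 0.31 and Mapk8ip2 by -1.36, so Mapk8ip2 was lower still in L4. Mapk8, the kinase JNK1, stood at -0.35 ± 0.19 and the scaffold Mapk8ip3 at -0.33 ± 0.19. Of 11 gp130 and JAK-STAT genes 0 passed and 1 had an unadjusted p under 0.05, with a median of -0.01. Jak1, a kinase that activates Stat3, differed by -0.50 ± 0.18 (adjusted p = 0.22). The cytokine Cntf stood at -0.25 ± 0.22, the receptor Il6r at 0.33 ± 0.31 and Pias3, an inhibitor of Stat3, at -0.18 ± 0.23.

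Of 10 BMP-SMAD genes 0 passed and 1 had an unadjusted p under 0.05, with a median of -0.02. That gene, Id2, a known target of Smad1, stood at 0.55 ± 0.21 (adjusted p = 0.22). Smad4 was given above, and the related targets Id3 and Id1 stood at -0.27 ± 0.19 and 0.32 ± 0.26. Of 14 cAMP-CREB genes 0 passed and 1 had an unadjusted p under 0.05, with a median of -0.14. Prkacb, a catalytic subunit of protein kinase A, stood at -0.56 ± 0.18 (adjusted p = 0.15), and Prkar1b, a regulatory subunit, at -0.32 ± 0.18. The phosphodiesterase Pde4d stood at 0.78 ± 0.52 and the cyclase Adcy2 at 0.27 ± 0.21.

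Among 25 regeneration-associated genes, 3 were called higher in L5 than in sham and 0 lower, with a median of 0.39. Over all 8269 genes, 13 were called higher and 42 lower. The 3 of the list were the neuropeptide genes Vip (2.72 ± 0.24, adjusted p = 0.0041), Npy (2.03 ± 0.22, adjusted p = 0.0057) and Gal (1.5 ± 0.26, adjusted p = 0.03). Each stood above sham at both days, Vip by 2.98 and 2.46, Npy by 2.21 and 1.85 and Gal by 1.97 and 1.02. Tuba1a, a tubulin of growing axons, stood at 1.05 ± 0.23 (adjusted p = 0.078), and in L4 it stood above sham by 1.28. Gap43, the growth cone protein, differed by 0.50 ± 0.19 (adjusted p = 0.21). Of the 25, 16 lay above 0. Ngfr (-0.59 ± 0.17), Adcyap1 (-0.49 ± 0.20) and L1cam (-0.41 ± 0.19) lay below it and were not called. Gap43 and these genes below 0 were picked after their values were seen. The list was drawn up with results of these arrays known, so its direction is no independent evidence.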

How the data were processed

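The authors used MAS5, according to the submitters' processing notes, which name no version. As deposited, the array values are intensities on a linear scale. Without its top and bottom 2% each array had a mean of 150.07 to 150.21. Detection calls were not used, so low signals do not show absence. Within a chip type, arrays were scaled to 1 trimmed mean. The pseudocount was the 20th percentile of a chip type (12.8 on A, 17.7 on B, 20.2 on C). Control probe sets and those with a mean signal under the 40th percentile (39.3, 53.6, 58.8) were left out. The 2 arrays of a pool (r = 0.88 to 0.958) come from 1 RNA and were averaged before limma 3.58.1 in R 4.3.3 was fitted per chip type (lmFit, eBayes with an intensity trend), with a threshold of 0.05. The code was tested on simulated data. The number of arrays limits the precision, and the design text says that pooled samples left no biological replicates.

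Members, lists, tests and alternatives were chosen with earlier results of these data known. Genes were named from the platform annotation. Named were all members, per pathway list the genes called in L5 against sham, filled to 4 by lowest p, and the probe sets nearest to each member over the pools (5 for Atf3, 3 for others). T cells (3 markers tested), myelinating Schwann cells (6), satellite glia (5) and vessel cells (6) had median L5 differences from sham of 0.56, 0.31, -0.44 and 0. Alternatives were other pseudocounts, filters and scalings, no trend, a replicate block, and leaving out arrays or pools.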

Additional observations from a re-analysis of the deposited data

Results flagged for a closer look

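For Jun, 2 probe sets had a difference between ganglia that pointed one way at 28 days and the opposite way at 50 days, with both arrays on each side apart. The difference between the days was not tested, since each rests on 1 pool per condition. For rc_AA945867_at, L5 stood above L4 by 1.3 at 28 days and differed from it by -0.37 at 50 days. For rc_AA944014_at, L4 differed from sham by -0.35 at 28 days and by 0.32 at 50 days. L4 minus sham went from -0.22 at 28 days to 0.34 at 50 days for rc_AI175959_at and from -0.67 to 0.89 for X17163cds_s_at, each with overlapping arrays at 1 of the days. For the brightest, rc_AA945867_at, L4 and sham arrays overlapped at both days.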

How the results depend on the processing

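Atf3 was higher in L5 than in sham in all 19 alternatives run, by 1.08 to 1.61, and was called in 15. Those without a call were the fit with no intensity trend, the fits without replicate 1 or without replicate 2 of the arrays, and the fit without the sham pool of 28 days. Against L4 it was higher in all 19, by 0.55 to 1.13, and called in 12. Over all member values reported, 574 values under an alternative kept direction and call, 11 lost a call, 16 gained one and 19 changed sign. Of the 16 gained, 6 were the day difference of Jun rc_AA945867_at. Calls gained, kept or lost in fits without 1 pool rest on a single pool of 1 condition.

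The number of probe sets called over all 15721 for L5 against sham, L5 against L4 and the day was 120, 199 and 45. It was 31, 19 and 23 with no filter, 41, 58 and 17 with quantile normalization, 415, 667 and 90 with median centring, and 2190, 4999 and 371 with hybridisation controls, where L4 against sham had 4. With no intensity trend it was 3, 0 and 0. With the second chip A array of L4 at 50 days left out, a choice made after seeing the data, it was 58 for L5 against sham and 27 for the day. For L5 against sham, 36 calls were higher and 84 lower, against 17 and 24 with quantile normalization, 45 and 370 with median centring and 45 and 2145 with hybridisation controls. With all 12 arrays of a chip type, the pool as a random block and the array number as a replicate block, it was 977, 1186 and 796, and Atf3 (-0.57, adjusted p = 0.038) and Jun rc_AA945867_at were then called for the day. The array number marks technical arrays and pairs no animals. When 1 pool or 1 set of arrays was left out, the counts ran from 0 to 621, from 0 to 784 and from 2 to 422, and for L4 against sham from 0 to 11. The causes were not tested.

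None of the values that changed sign was called in the fit described above. For L5 against sham, Stat3 rc_AI059916_f_at was -0.02 with quantile normalization, -0.02 with median centring and -0.28 with hybridisation controls, and Klf6 was -0.07 with median centring and -0.31 with hybridisation controls. With hybridisation controls L5 against L4 was -0.05 for Jun rc_AA945867_at, -0.12 for Jun rc_AI175959_at, -0.31 for Smad1 and -0.06 for Crem. With 1 pool or 1 set of arrays left out, L5 against sham ran from -0.35 to 1.35 for Jun rc_AA945867_at, -0.16 to 1.11 for Jun X17163cds_s_at, -0.24 to 0.48 for Klf6, -0.23 to 0.09 for Stat3 rc_AI012356_at and -0.03 to 0.17 for Stat3 rc_AI059916_f_at. L5 against L4 ran from -0.39 to 1.32 for Jun rc_AA945867_at, -0.01 to 0.71 for Smad1 and -0.22 to 1.06 for Crem.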
